A study of Mus musculus with 2 samples.

Results

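Lyz1, Defa24, Defa17, Mmp7 and Ang4 are genes of the antimicrobial programme of Paneth cells, and they were taken by name, as 5 of the 31053 genes in the deposited matrix. Their counts were read over barcodes with at least 500 genes, at least 1000 unique molecular identifiers (UMIs) and at most 20% of UMIs from mitochondrial genes, which left 4066 cells. The samples are mouse small intestinal organoids, epithelial structures grown in culture from intestinal crypts, labelled as 1 control and 1 melatonin-treated library. Each library pooled single cells of 3 organoid lines on culture day 3. No strain, age or genotype is stated in the sources used here.

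The files of both libraries were identical, so there was 1 matrix and 1 sample, and no comparison of control with melatonin was made. Barcodes in the matrix end in 1 (set 1, 2300 kept cells) or 2 (set 2, 1766 kept cells), and no label ties a suffix to a treatment. Cells are not replicates, so the sets are described side by side without a test, and ratios of set 2 to set 1 have no direction with respect to melatonin. The kept cells held 61628537 UMIs in set 1 and 51111519 in set 2, with medians of 29872 and 28759 UMIs per cell. Of 29 barcode sequences that occurred with both suffixes, 0 were kept in both sets. Intervals are at the 95% level, exact Poisson for levels and Clopper-Pearson for shares, and cover counting error only. Levels are UMIs of a gene summed over the cells named and scaled to 1000000 UMIs (CPM).

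Paneth cells sit at the base of small intestinal crypts and release granules that act against bacteria. Lysozyme (Lyz1) cleaves the bacterial cell wall, alpha-defensins (Defa24, Defa17) are small cationic peptides that disrupt bacterial membranes, matrilysin (Mmp7) is the protease that cuts mouse pro-defensins into their active form, and angiogenin 4 (Ang4) is a secreted ribonuclease with bactericidal activity. Goblet cells, the mucus-secreting neighbours of Paneth cells, are defined by the mucin Muc2.

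The 3 most counted alpha-defensins are near-copies of each other, and their coding sequences are given because this limits how their counts can be separated. They are from GENCODE M21 (GRCm38), matched by Ensembl identifier, and the capitals mark bases that differ from Defa24. The build used for the deposited counts is not given in the sources used here.
Defa24: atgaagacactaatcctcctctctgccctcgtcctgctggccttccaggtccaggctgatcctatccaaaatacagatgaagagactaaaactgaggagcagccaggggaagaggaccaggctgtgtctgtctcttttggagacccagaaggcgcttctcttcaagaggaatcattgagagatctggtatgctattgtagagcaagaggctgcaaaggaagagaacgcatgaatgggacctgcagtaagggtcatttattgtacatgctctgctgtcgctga
Defa17: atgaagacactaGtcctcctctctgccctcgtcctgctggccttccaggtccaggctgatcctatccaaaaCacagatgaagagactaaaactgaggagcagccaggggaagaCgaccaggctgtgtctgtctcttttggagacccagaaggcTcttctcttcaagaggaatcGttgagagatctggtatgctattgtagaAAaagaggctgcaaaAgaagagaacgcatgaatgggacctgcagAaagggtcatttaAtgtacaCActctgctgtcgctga
Defa30: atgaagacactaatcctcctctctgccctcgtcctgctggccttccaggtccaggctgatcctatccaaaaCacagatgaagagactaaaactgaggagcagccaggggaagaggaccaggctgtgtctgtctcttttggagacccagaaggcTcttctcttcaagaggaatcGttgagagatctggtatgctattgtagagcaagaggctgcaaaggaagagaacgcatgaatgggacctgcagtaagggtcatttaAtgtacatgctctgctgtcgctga

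Defa17 differed from Defa24 at 12 of 282 bases (95.7% identity), 5 of them in the first 188 bases and 7 in the rest. Defa30 differed at 4 bases (98.6% identity). The longest stretch identical to Defa24 was 58 bases in Defa17 and 84 bases in Defa30. Among the 21 other alpha-defensins in the gene list, 7 had at least 90% coding identity with Defa24. The libraries are 3' libraries, and identity in the last 100 bases of the transcript ranked the copies differently. It was 94% for Defa17 and 96.0% for Defa30. Of the 7, Defa25 and Defa27 had 49.5% and 47.4% there, whereas Defa28, at 87.8% coding identity, had 91%. Counts of the closest copies may be split or lost where a read fits several of them, so the division of UMIs among them is uncertain. Lyz1 and its neighbour Lyz2, a lysozyme of myeloid cells, were 95.1% identical in their coding sequence, but Lyz2 had 10 UMIs against 6594 of Lyz1 in kept cells. In GRCm38, Defa24 (ENSMUSG00000064213) lies at chr8:21734494-21735471 on the plus strand and Defa17 (ENSMUSG00000060208) at chr8:21655780-21656735 on the plus strand. Mmp7 (ENSMUSG00000018623) lies at chr9:7692090-7699585 on the plus strand, Lyz1 (ENSMUSG00000069515) at chr10:117287797-117292868 on the minus strand and Ang4 (ENSMUSG00000060615) at chr14:51763878-51773590 on the minus strand.

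The defensins and Ang4 came from very few cells. Defa24 had 24175 UMIs, of which 4306 lay in set 1 (69.9 CPM, interval 67.8 to 72.0) and 19869 lay in set 2 at 389 CPM (383 to 394). It was counted in 603 cells, but 449 of these held a single UMI and 34 held at least 100. The highest cell held 4142 UMIs, the 3 highest held 40.5% of all Defa24 UMIs, and 5 cells held over 50%. Defa17 had 723 UMIs in 80 cells, 61 of them at 0.990 CPM in set 1 (0.757 to 1.27) and 662 at 13.0 CPM in set 2 (11.98 to 13.98). Its 3 highest cells held 67.9% of its UMIs. Ang4 had 285 UMIs in 47 cells, 114 at 1.85 CPM in set 1 (1.53 to 2.22) and 171 in set 2 (3.35 CPM, 2.86 to 3.89), and its 3 highest cells held 48.4%.

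Lyz1 and Mmp7 were spread more widely. Lyz1 had 4057 UMIs at 65.8 CPM in set 1 (63.8 to 67.9) and 2537 UMIs at 49.6 CPM in set 2 (47.7 to 51.6), over 965 cells, of which 448 held at least 2 UMIs and 112 at least 10. Mmp7 had 406 UMIs at 6.59 CPM in set 1 (5.96 to 7.26) and 208 UMIs at 4.07 CPM in set 2 (3.54 to 4.66), over 224 cells, and no cell exceeded 24 UMIs. The 10 highest cells held 26.6% of the Lyz1 UMIs and 25.6% of the Mmp7 UMIs, against 70.4% for Defa24.

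**Figure D1:**
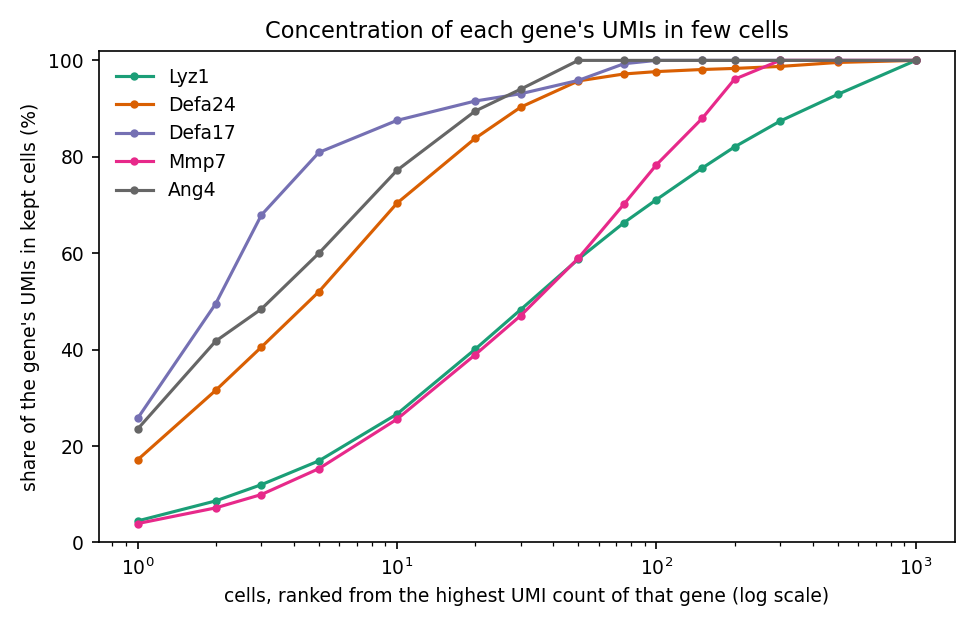
Cumulative share of each gene's UMIs (y axis, percent) against the number of cells, ranked from the highest count of that gene (x axis, log scale), over the 4066 kept cells of both sets. The curves of Defa17, Ang4 and Defa24 reach 87.6%, 77.2% and 70.4% within 10 cells, whereas those of Lyz1 and Mmp7 reach 26.6% and 25.6%.

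At 2 or more UMIs per gene, the defensins and Lyz1 overlapped, and most Mmp7 cells lacked the other 4 genes. All 21 Defa17 cells also had Defa24, which was 13.6% of the 154 Defa24 cells. Lyz1 and Defa24 shared 73 cells, 47.4% of the Defa24 cells and 16.3% of the 448 Lyz1 cells. Of 23 Ang4 cells, 17 had Lyz1 and 13 had Defa24. Mmp7 had 109 cells, of which 27 had Lyz1 (24.8%, against 10.6% of cells below 2 Mmp7 UMIs), 14 had Defa24 (12.8% against 3.54%), 2 had Ang4 and 2 had Defa17.

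Cells with at least 2 UMIs of at least 3 of the 5 genes, called multi-member cells here, numbered 14 in set 1 (0.609%, 0.333% to 1.02%) and 16 in set 2 (0.906%). At 2 or more UMIs per gene, 1 cell held all 5, a cell of set 2 with 25 UMIs of Lyz1, 4142 of Defa24, 2 of Defa17, 15 of Mmp7 and 19 of Ang4. The cell with the most Lyz1, also of set 2, had 294 UMIs of Lyz1, 3485 of Defa24, 186 of Defa17, 67 of Ang4 and 0 of Mmp7. A cell of set 1 had 222 UMIs of Lyz1, 20 of Mmp7 and 52 of Ang4 but 0 of Defa24. The ratio of the defensins was not fixed among high cells. The cell with 4142 UMIs of Defa24 had 2 of Defa17, whereas a cell with 1517 had 172. The median depth of the multi-member cells was 20541.5 UMIs, and 1 of the 30 lay above the 95th percentile of depth of the kept cells of its own set.

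The multi-member cells fell on either side of a cut on enteroendocrine genes. The enteroendocrine range is defined as cells with at least 10 UMIs of Chga plus Chgb, granule proteins of hormone-secreting cells, per 10000 UMIs. It held 660 cells with a median of 380 Chgb UMIs per 10000, and 208 kept cells, inside and outside it, lay within a factor of 2 of the cut. It is a range of a score and not a cell type. Of the multi-member cells, 14 lay inside it (6 in set 1, 8 in set 2) and 16 outside (8 in each set). Those outside had a median of 455 UMIs of Tff3, a goblet cell peptide, and 1 of Chgb. Those inside had medians of 57 and 396.5.

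Among the multi-member cells, Muc2 at 2 or more UMIs lay outside the enteroendocrine range. It was present in 10 of the 16 cells outside, 3 of 8 in set 1 and 7 of 8 in set 2, and in 0 of the 14 inside, where 2 cells held a single Muc2 UMI. Over all multi-member cells this was 10 of 30 (33.3%, 17.3% to 52.8%). Outside the range, the median Defa24 count was 169 UMIs in set 1 and 1276 in set 2, whereas the median Lyz1 count was 125.5 in set 1 and 16.5 in set 2. Zg16, a goblet cell lectin, reached 2 UMIs in 4 of these cells, all in set 2.

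**Figure D2:**
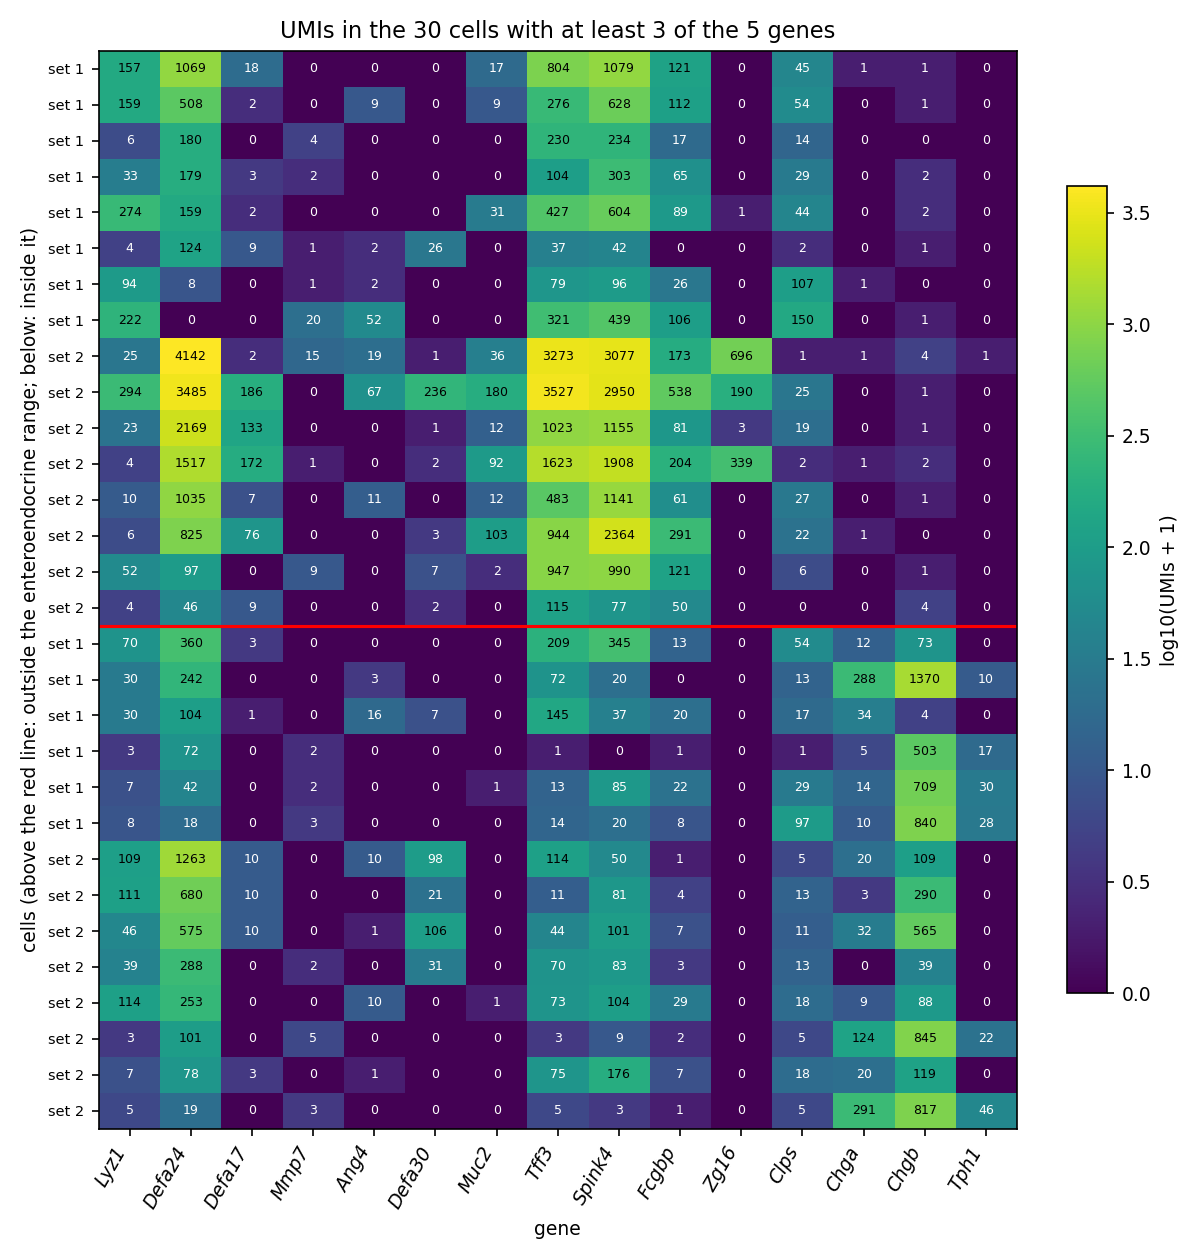
UMIs of the 5 genes and of other secretory genes (columns) in the 30 multi-member cells (lines, with their barcode set), coloured by log10 of UMIs plus 1 with the count printed. The 16 cells above the red line lie outside the enteroendocrine range and hold all 10 cells with at least 2 Muc2 UMIs, and the 14 cells below it lie inside the range.

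Seen from Muc2, a comparison added after seeing the data, 24 cells had at least 2 UMIs of it, 12 in each set. Lyz1 was present at 2 or more UMIs in 20 of them (83.3%) against 10.6% of all other cells, Defa24 in 12 (50%) against 3.51%, Defa17 in 9 (37.5%) against 0.297%, Mmp7 in 7 (29.2%) against 2.52% and Ang4 in 5 (20.8%) against 0.445%. In summed levels, 5 of the 5 genes were at least 2-fold higher in Muc2 cells, where 5.82% of 15474 genes with at least 10 UMIs were. Their median log2 ratio of CPM plus 1 was 5.85, against -0.20 over all genes. Lyz1 was at 1934 CPM in Muc2 cells and 46.0 CPM in the others. Mmp7 was at 65.6 CPM (48.5 to 86.7) and 5.04 CPM. Few cells carry these sums. In Muc2 cells, the cell with 4142 Defa24 UMIs held 26.1% of the Defa24 UMIs, and the cell with 186 Defa17 UMIs held 31.1% of the Defa17 UMIs and 60.9% of the Ang4 UMIs. Muc2 cells that were not multi-member cells numbered 14. They held 440 UMIs of Lyz1 but 0 of Defa17, and of their 835 UMIs of Defa24, 828 lay in 1 cell.

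Other Paneth and goblet genes were described in the same way, with lists chosen by name. In Muc2 cells, 10 of 17 measured further Paneth genes were at least 2-fold higher, where 5.82% of all genes were, and 0 were lower. Among the higher genes were Itln1 (intelectin, a lectin), Clps (colipase), Reg3g (an antibacterial lectin), Wnt3 (a stem cell niche ligand) and Kit (a receptor). Wnt3, Kit and Clps were also counted in the enteroendocrine range. Among cells that were not multi-member cells, 105 of the 759 Wnt3 UMIs, 246 of the 576 of Kit and 1716 of the 6598 of Clps lay outside it. Itln1 and Reg3g lay mostly outside it, with 71193 of 73214 and 935 of 945 UMIs. Of 12 genes of secretory fate, 10 were higher in Muc2 cells, including Atoh1, Gfi1 and Spdef, transcription factors of secretory cells, and 1 was lower, Fzd5, a Wnt receptor. Gfi1 was sparse, with 5 UMIs in multi-member cells and 18 in all other kept cells. The goblet list was higher in 13 of 13 genes, Muc2 itself included and Clca1 through 1 cell. The enteroendocrine list was lower in 8 of 12 genes, where 12.1% of all genes were at least 2-fold lower (for Pax4, with 1 UMI, the interval held the level of other cells), and the enterocyte list in 9 of 10.

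The multi-member cells outside the enteroendocrine range were set against other cells outside it. The 5 genes chose these cells, so their own ratios are not a result. Of 15 measured further Paneth genes, 10 were at least 2-fold higher, where 9.85% of 14653 genes were, and 2 passed the 2-fold limit downwards, where 14.1% of genes did. These were Reg3b, a secreted lectin, with 0 UMIs in the 16 cells, and Fgfrl1, a receptor of the fibroblast growth factor family, with 1 UMI. The counting intervals of both held the level of the other cells, so no lower level was measured for them. All 13 measured goblet genes were higher and 9 of 10 enterocyte genes lower. Of the enteroendocrine list, 5 of 12 were higher (Neurod1, Pax4, Pcsk1, Scg5 and Sct) and 1 lower (Cck), where the other cells leave out the enteroendocrine range. Single cells carry some of these calls, as 1 cell held all 13 UMIs of Reg3g, 1 held all 41 of Clca1, and 1 held 85.2% of those of Neurod1 and 1 held 81.8% of those of Pax4. Within the same Paneth list, Itln1 was at 6450 CPM and Clps at 1195 CPM in these cells, against 693 and 16.7 CPM in the other cells outside the range. Itln1 was widely counted, at 2 or more UMIs in 65.9% of those other cells. The mucosal pentraxins Mptx1 and Mptx2 had 2 and 0 UMIs over all kept cells. No cell was named a Paneth cell here.

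Inside the enteroendocrine range, the multi-member cells, set against other cells of the range, had 6 of 14 further Paneth genes and 6 of 9 goblet genes at least 2-fold higher, where 6.03% of 12703 genes were. Habp2, Reg3g, Fgfrl1 and Muc2 are among those counted as higher with only 1 to 4 UMIs, and their intervals held the level of the rest of the range. All 42 UMIs of AY761184, another of the 6 Paneth genes, lay in 1 cell. Guca2a of the Paneth list and Sytl2 and Bcas1 of the goblet list passed the 2-fold limit downwards with 0 UMIs, and their intervals, up to 15.6 CPM, also held it. Of 12 enteroendocrine genes 1 was higher (Sct, secretin) and 0 lower, where 23% of genes were lower. The summed enteroendocrine level was 112558 CPM in these cells and 93232 CPM in the rest of the range. Single cells weigh on the first sum. Among all 30 multi-member cells, 1 cell held 29.3% of the 15420 Cck UMIs and 1 held 52.4% of the 2371 Gcg UMIs.

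Levels away from these cells were measured after leaving out all multi-member and Muc2 cells. The enterocyte range has at least 10 UMIs of Fabp1 plus Apoa1, lipid-handling proteins, per 10000 UMIs and lies outside the enteroendocrine range. It held 582 cells, and 2796 further cells lay in neither range. On either side of the cut, 476 kept cells lay within a factor of 2 of it. Defa24 was at 5.02 CPM (4.0 to 6.22) in the enterocyte range and 7.50 CPM (6.93 to 8.10) in neither. These were 5.12 and 6.23 CPM in set 1 and 4.94 and 9.21 CPM in set 2. Defa17 was at 0.544 and 0.501 CPM in these groups. When each cell was thinned to 2000 UMIs, the expected share of cells with a Defa24 UMI was 0.905% in the enterocyte range and 1.56% in neither, against 13.1% and 13.7% without thinning. In neither range, 64 cells held at least 2 UMIs of Defa24 and 7 held at least 10, and the cells below 2 UMIs were at 3.81 CPM. In the enterocyte range 7 cells held 2 UMIs and none held more, and the cells below 2 UMIs were at 4.24 CPM. Whether free RNA gave these low counts was not tested. The enteroendocrine range, with 644 cells, was higher in Defa24 at 319 CPM (307 to 330), with a thinned share of 8.08%. There 52 cells held at least 2 UMIs of Defa24 and 33 at least 10, and the cells below 2 UMIs were at 7.06 CPM.

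Lyz1 did not follow the defensins there. It was at 61.3 CPM (57.6 to 65.2) in the enterocyte range and 18.1 CPM (17.2 to 19.0) in neither, and at 176 CPM (167 to 185) in the enteroendocrine range. Thinned shares were 8.90%, 2.25% and 15.6%. Defa24 had 11.4 UMIs per UMI of Lyz1 in the multi-member cells outside the enteroendocrine range, 1.81 in that range, 0.415 in neither and 0.0819 in the enterocyte range. The value of the multi-member cells is description only, because both genes were among those that chose these cells. The sets differed widely in the first of these groups, with 2.35 in set 1 and 31.9 in set 2, and in the enteroendocrine range, with 0.741 and 4.79. The values were 0.276 and 0.764 in neither range and 0.0868 and 0.0783 in the enterocyte range. Single cells weigh on the first group, where 1 cell held 70.3% of the Lyz1 UMIs of set 2 and 1 held 48.0% of the Defa24 UMIs of set 1. Of the 112 cells with at least 10 Lyz1 UMIs, 19 were multi-member cells, 7 were other Muc2 cells, 41 lay in the enteroendocrine range, 23 in the enterocyte range and 22 in neither. Among the 23 of the enterocyte range, 0 had at least 2 UMIs of Defa24 and 0 of Clps, and 6 had Tff3. All 22 in neither range had Tff3, 20 had Fcgbp, a mucus protein, and 1 had Defa24. Of the 41 in the enteroendocrine range, 35 had Tff3, 40 had Clps and 16 had Defa24. Of the 19 multi-member cells, chosen partly on Defa24, 18 had Defa24.

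**Figure D3:**
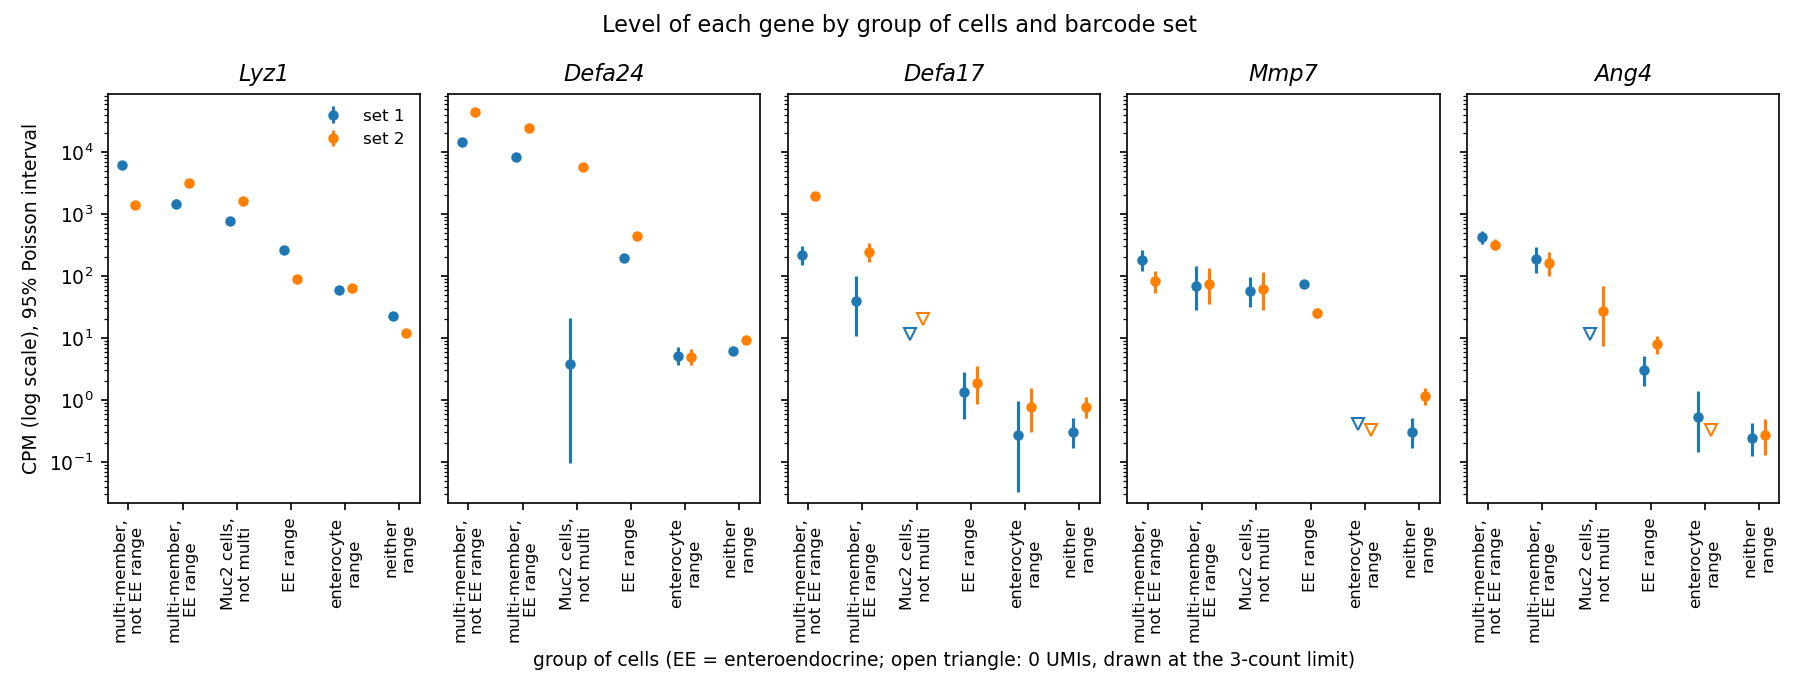
Level of each gene (y axis, CPM, log scale, with 95% Poisson intervals) in 6 groups of cells and both sets (set 1 blue, set 2 orange), where open triangles mark 0 UMIs drawn at the limit of 3 counts. Defa24 is at 5.02 CPM in the enterocyte range, where Lyz1 is at 61.3 CPM, and Mmp7 is at 49.6 CPM in the enteroendocrine range with 0 UMIs in the enterocyte range.

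Most Mmp7 UMIs lay in cells of the enteroendocrine range. This range, without multi-member and Muc2 cells, held 463 of its 614 UMIs (75.4%), at 49.6 CPM (45.2 to 54.3), with 75.1 CPM in set 1 and 25.4 CPM in set 2. Cells in neither range were at 0.665 CPM (0.503 to 0.861), and the enterocyte range had 0 UMIs, where 3 counts would be 0.181 CPM. Mmp7 was also counted in the few Muc2-positive and multi-member cells. In Muc2 cells that were not multi-member cells it was at 58.8 CPM (37.7 to 87.5), where 5 of 14 had at least 2 UMIs. This was 57.3 CPM in set 1, with 9 of the 15 UMIs in 1 cell, and 61.4 in set 2, with 7 of the 9 UMIs in 1 cell. In the 16 multi-member cells outside the range, for which Mmp7 was among the 5 genes that chose them, it was at 116 CPM (86.7 to 151). With all kept cells, the enteroendocrine range held 85.7% of the Mmp7 UMIs of set 1 and 63.5% of those of set 2. Of the 109 cells with at least 2 Mmp7 UMIs, 94 lay in the range (86.2%). Tph1, the enzyme of serotonin synthesis that marks enterochromaffin cells, was present at 2 or more UMIs in 90 of the 109 (82.6%) against 7.20% of other cells, and Tac1, which encodes tachykinin peptides of enterochromaffin cells, in 90 against 10.97%. Vim, an intermediate filament gene of the mesenchymal list, was present in 89 (81.7%) against 6.77%. Ptprc, a leukocyte marker, had 0 UMIs over all kept cells and Col1a1, a fibroblast collagen, had 9.

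Within the enteroendocrine range, cells were divided by Tph1, a choice made after seeing these values. The 373 cells with at least 2 Tph1 UMIs held 456 UMIs of Mmp7 (79.0 CPM, 71.9 to 86.6) and the 287 others held 24 (6.25 CPM, 4.01 to 9.30), at median depths of 14263 and 13733 UMIs. Both sets had this order, 111 against 9.11 CPM in set 1 and 44.5 against 4.11 CPM in set 2. Without multi-member and Muc2 cells, Mmp7 was at 77.6 and 6.01 CPM. Lyz1 had the opposite order, 128 CPM in Tph1 cells against 387 CPM, and 121 against 262 CPM without multi-member and Muc2 cells. The order of Defa24 turned with the multi-member cells, which were chosen partly on Defa24. It was at 451 CPM in Tph1 cells against 1166 CPM with them, and at 371 CPM (355 to 387) against 237 CPM (222 to 254) without them and the Muc2 cells. The latter was 215 against 165 CPM in set 1 and 539 against 293 CPM in set 2. Single cells weigh on the values of set 1. There 1 cell held 267 of the 633 Defa24 UMIs of the Tph1 cells, and 1 held 119 of the 263 of the others. Divided by Gcg, which encodes proglucagon, Mmp7 was at 12.7 CPM in positive and 62.6 CPM in other cells, with 28.3 and 83.6 CPM in set 1 and 5.88 and 37.5 CPM in set 2. In Gcg cells, 1 cell held 17 of the 21 Mmp7 UMIs of set 1, where both sets together had 31. Defa24 was at 1402 and 510 CPM in this division. Without multi-member and Muc2 cells it was at 293 CPM (271 to 316) and 327 CPM (314 to 341). Its order turned there too, but these intervals overlapped. Both sets had the turned order, 72.7 against 221 CPM in set 1 and 390 against 455 CPM in set 2. Among cells of the range with 10 or more Tph1 UMIs, 37.6% of set 1 (29.8% to 45.9%) and 15.3% of set 2 (9.98% to 22.1%) had at least 2 Mmp7 UMIs, against 0.680% and 2.31% of cells with 0 Tph1 UMIs.

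**Figure D4:**
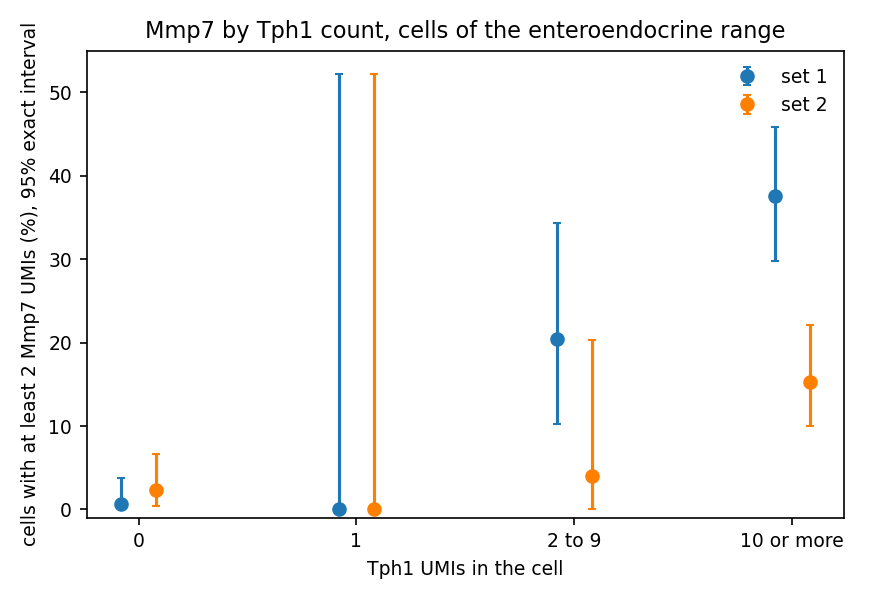
Share of cells with at least 2 Mmp7 UMIs (y axis, percent, with 95% exact intervals) by the Tph1 count of the cell (x axis) among cells of the enteroendocrine range in each set. The share is 0.680% and 2.31% at 0 Tph1 UMIs and 37.6% and 15.3% at 10 or more, and the bins with 1 Tph1 UMI hold 5 cells per set.

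The Mmp7 cells were not uniform. The highest, with 24 UMIs, lay in set 2 outside the enteroendocrine range and had 0 UMIs of Chga, Tph1, Lyz1, Defa24 and Tff3. The next, with 20 UMIs, was the set 1 cell with 222 UMIs of Lyz1 and 52 of Ang4 described above. Of the 12 cells with at least 10 Mmp7 UMIs, the remaining one outside the range was the set 2 cell with 4142 UMIs of Defa24. The other 9 lay in the range with 7 to 95 UMIs of Tph1.

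Gene by gene over the 4066 cells, the nearest genes by Pearson r of log2 UMIs per 10000 plus 1, among 14141 genes, differed in kind. These values describe cells that share libraries and depth. For Lyz1 they were Fcgbp (r = 0.54), Clps (0.47), Tff3 (0.45), Spink4 (0.44) and Defa24 (0.44). The nearest to Defa24 were Defa17 (0.51), Spink4 (0.48), Defa30 (0.45), Lyz1 (0.44) and Fcgbp (0.40). Defa17 had Defa30 (0.59), Defa24 (0.51), Muc2 (0.48), Zg16 (0.43) and Ano7 (0.42), and Ang4 had Defa30 (0.42), Defa24 (0.35), Defa17 (0.34), Lyz1 (0.30) and Spink4 (0.30). Mmp7 instead had Vim (0.52), Scn3a (0.51), Pappa2 (0.51), Tph1 (0.50) and Slc18a1 (0.49), and its r with Lyz1 was 0.13. Without the 10 cells highest in the gene itself, r of Defa17 with Muc2 fell to 0.20 and r of Ang4 with Defa30 to 0.08, while that of Mmp7 with Tph1 was 0.51.

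Of the 22 alpha-defensin genes in the list, 10 had 0 UMIs, 7 had 1 to 9 and 5 had 10 or more. Defa24 made up 94.8% of their 25505 UMIs. Defa30 had 567 UMIs, 37 in set 1 and 530 in set 2, and 95.4% of them lay in multi-member cells. Defa3 had 14 UMIs and Defa26 had 13. How reads that fit several of the closest copies were assigned is not given in the sources used here.

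Between the sets, 2 of the 5 genes were at least 2-fold higher in set 2, where 0.595% of 15474 genes were, and 0 were at least 2-fold lower, where 0.297% were. The log2 ratio was 2.46 for Defa24, 2.81 for Defa17, 0.61 for Ang4, -0.40 for Lyz1 and -0.58 for Mmp7. The scaling mattered. With CPM computed per cell and then averaged over cells, in place of summed UMIs, the direction of Ang4 turned, at 4.32 CPM in set 1 and 3.60 in set 2 (log2 ratio -0.21). On that scale the ratio was 1.57 for Defa24 and 1.22 for Defa17, whose level in set 1 was 4.79 CPM instead of 0.990, and it was -0.56 for Lyz1 and -0.93 for Mmp7. Among the 5 genes, single cells carry a clear part of the difference for Defa17 only, and the differences of Lyz1 and Mmp7 grew without the highest cells. Without the 3 highest cells of each set the ratio of summed UMIs was 2.33 for Defa24, 1.53 for Defa17, 0.54 for Ang4, -0.51 for Lyz1 and -0.72 for Mmp7. Muc2 had a ratio of 1.91, and 0.96 without its 3 highest cells per set. With 1 pool of cells per set and no replicates, spread between cultures is not known. The part of the differing numbers of secretory cells and of the differing UMIs per cell was not tested.

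**Figure D5:**
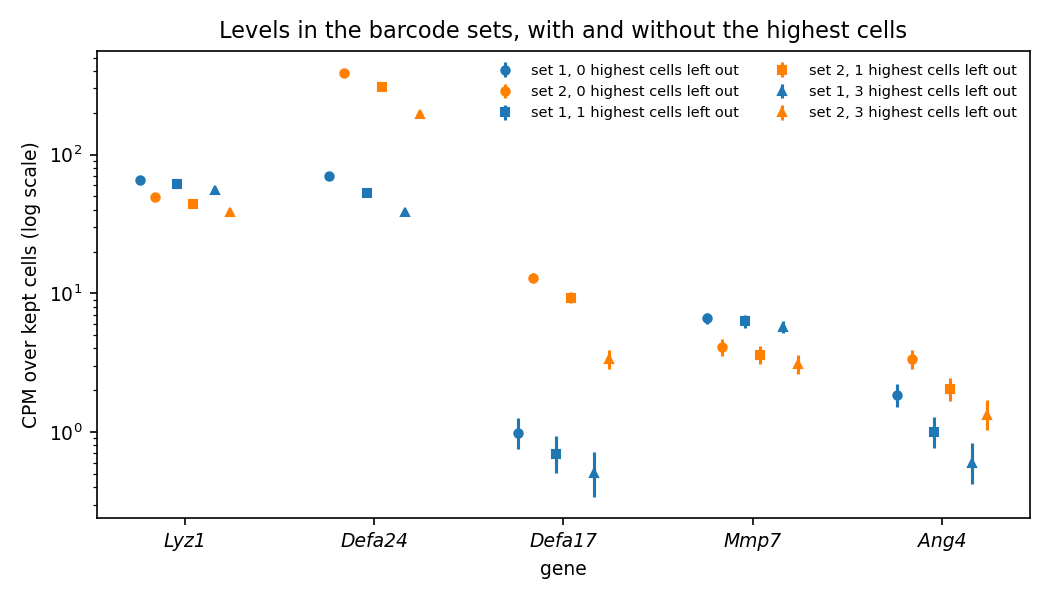
Level of each gene over kept cells of set 1 (blue) and set 2 (orange) on a log CPM axis with 95% Poisson intervals, with all cells and without the 1 or 3 highest cells of that gene in each set. Defa24 stays higher in set 2, at 198 against 38.5 CPM without the 3 highest cells, and Lyz1 and Mmp7 stay lower.

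Barcodes that the filter left out also held these genes. Kept cells carried 82.2% of all Lyz1 UMIs, 86.2% of Defa24, 74.7% of Defa17, 85.3% of Mmp7 and 76.8% of Ang4. In set 1, 53.9% of the Defa17 UMIs lay in barcodes with over 50% mitochondrial UMIs and 34.3% in kept cells. Outside the kept cells there were 10 further multi-member barcodes, 1 with up to 20% mitochondrial UMIs, 3 with 20% to 50% and 6 above 50%. Over all barcodes the log2 ratio of set 2 to set 1 was 2.16 for Defa24 and 1.94 for Defa17.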

How the data were processed

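The deposited matrix, barcode and gene files hold raw UMI counts, whole numbers for each gene in each barcode. The authors' count matrix carries the software version 3.1.0 in its header, per the file headers. The submitters' processing notes name Cell Ranger 3.1.0, bcl2fastq 2.20.0 and STAR 2.7.3a. Libraries were 10x single-cell 3' RNA libraries sequenced on an Illumina instrument, per the labels' protocols. The genome build and the handling of reads that fit several genes are not given in the sources used here. Because both samples' files were identical (3 of 3), they were read as 1 sample.

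Cells were filtered at 500 genes, 1000 UMIs and 20% mitochondrial UMIs with Python 3.11.15, numpy 2.4.6, pandas 2.3.3 and scipy 1.17.1. No doublet caller was run and no doublets were removed, and leaving out the 5% of cells with the most UMIs was an alternative. Multi-member cells had at least 2 UMIs of at least 3 of the 5 genes. Ratios are log2 of CPM plus 1 over genes with at least 10 UMIs, and a gene was called at 2-fold, with no test because there are no replicates. Shares at a fixed depth are the hypergeometric expectation at 2000 UMIs, leaving out shallower cells (342 of 4066). The ratio was tested on simulated counts of multi-member against other cells, where 199 of 200 changed genes among 15473 were recovered. The changed genes were well-counted genes with changes beyond the 2-fold limit, and the simulated counts had no spread between cells. The simulation therefore does not cover calls that rest on few UMIs or on single cells. Calls among unchanged genes were not counted.

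Named genes were the 5 genes, list genes with at least 100 UMIs, alpha-defensins with at least 10 UMIs and the 5 nearest genes by r among those in at least 20 cells. Genes outside this rule, such as Mptx1, Lyz2, Tac1 and Ptprc, were named after their values were seen. The genes and lists were chosen with earlier results of these data known.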

Additional observations from a re-analysis of the deposited data

How the results depend on the processing

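The number of multi-member cells, 14 in set 1 and 16 in set 2, depended on its threshold. It was 31 and 33 at 1 UMI per gene, 3 and 8 at 10 UMIs per gene, and 51 and 56 when 2 of the 5 genes were enough. The share with Muc2, 33.3%, was 18.8%, 45.5% and 15.0% in these. Of 15474 genes, 1924 were at least 2-fold higher in multi-member cells and 1425 lower; with a pseudocount of 10 CPM these were 436 and 289, and with 0.1 CPM 3834 were lower. The enteroendocrine range held 86.5% of the Mmp7 UMIs of set 1 and 63.9% of those of set 2 at a cut of 5 per 10000 UMIs, and 85.7% and 61.5% at 20, alternatives added after seeing the data. Other mitochondrial limits, a stricter depth filter and leaving out the 5% deepest cells moved the number of multi-member cells by less than 1.5 times. Of 70 member levels under alternatives, 45 lay outside the main counting interval, 20 of them higher. Averaging CPM over cells turned the direction of Ang4 between the sets. Leaving out multi-member and Muc2 cells, added after seeing the data, turned the direction of Defa24 between Tph1 cells and others. It also turned that between Gcg cells and others, with intervals that overlapped over both sets together. No paired analysis was possible because there is 1 sample, the deposited matrix being the same for both groups. No replicate could be left out for the same reason. The levels of Defa17 and Ang4 rest on few cells, as their 3 highest cells held 67.9% and 48.4% of their UMIs.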
